A study of Homo sapiens with 2 samples.

Results

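The genes of MHC class I antigen presentation were examined for open chromatin by ATAC-seq, which marks accessible DNA by the places where the transposase Tn5 inserts sequencing adapters. The 9 genes were a fixed list: HLA-B, HLA-C, HLA-E, HLA-F, B2M, TAP1, TAP2, TAPBP and NLRC5, of 19970 protein-coding genes in the annotation used. Their peaks were those of the main chromosomes (1 to 22 and X) that lay in the gene body or within 10 kb of any annotated transcript start. The cells were SUM159, an established human line of triple negative breast cancer that belongs to the claudin-low subtype and is mesenchymal in its features. Each population carried dCas9-KRAB, a Cas9 that cannot cut fused to the KRAB repressor domain, which was expressed from a lentiviral vector in cells selected with puromycin. Cells with the empty vector gave the No gRNA library, and cells with 4 guides directed to the promoter of ZEB1 gave the All gRNA library. With 1 library per group the groups could not be tested against each other, and all comparisons are between these libraries, without p-values.

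MHC class I molecules show fragments of the cell's own proteins to CD8+ T cells and to natural killer cells. HLA-B and HLA-C are the heavy chains that vary most between people, HLA-E and HLA-F are heavy chains with few variants and more specialised roles, and B2M is the light chain that a heavy chain needs to reach the cell surface. TAP1 and TAP2 form the transporter that moves peptides into the endoplasmic reticulum, TAPBP (tapasin) joins the transporter to an empty heavy chain, and NLRC5 is the transactivator that works at the promoters of class I genes. These promoters are known for an NF-kB site, an interferon response element (ISRE) and a module bound by RFX, CREB and NF-Y, and interferon raises most of the genes. In carcinoma cells the pathway is a known point of immune escape.

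Promoter stretches of the genes named below are shown first, from the hg38 genome, 5′ to 3′ along the gene. Capitals mark 5 motifs that were searched on both strands from 250 bp before to 50 bp after the main start: the ISRE core GAAANNGAAA, the NF-kB site GGGATTCC, the CCAAT box (the NF-Y site), the CRE-like core TGACG and the E-box CAGGTG that ZEB1 can bind. Bases that belong to an untranslated region were left out. HLA-B and HLA-C are shown in pairs, the sequence of chromosome 6 and that of the MCF haplotype contig, since their peaks lay on the contig and not on the chromosome. HLA-F also had its peaks on contigs only, but is shown from chromosome 6 alone. Its contig summits lay between −25 and 25 bp from the main start, outside the stretch shown. HLA-B is given at chr6:31357294-31357429 (minus strand) and HLA-C at chr6:31272106-31272342 (minus strand). HLA-E is given at chr6:30489259-30489508 (plus strand), HLA-F at chr6:29723184-29723305 (plus strand), B2M at chr15:44711324-44711508 (plus strand) and TAP1 at chr6:32853817-32853954 (minus strand).
HLA-B, chromosome 6: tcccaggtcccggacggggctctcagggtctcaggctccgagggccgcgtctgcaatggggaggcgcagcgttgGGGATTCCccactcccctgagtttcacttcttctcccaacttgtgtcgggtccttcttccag
HLA-B, MCF contig: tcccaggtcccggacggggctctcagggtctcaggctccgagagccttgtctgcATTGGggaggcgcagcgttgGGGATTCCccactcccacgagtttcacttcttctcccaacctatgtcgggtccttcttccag
HLA-C, chromosome 6: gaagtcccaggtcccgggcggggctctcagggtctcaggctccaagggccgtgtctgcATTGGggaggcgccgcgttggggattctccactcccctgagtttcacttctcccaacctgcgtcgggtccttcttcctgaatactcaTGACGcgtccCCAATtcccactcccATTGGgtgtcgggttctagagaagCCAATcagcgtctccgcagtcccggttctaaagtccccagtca
HLA-C, MCF contig: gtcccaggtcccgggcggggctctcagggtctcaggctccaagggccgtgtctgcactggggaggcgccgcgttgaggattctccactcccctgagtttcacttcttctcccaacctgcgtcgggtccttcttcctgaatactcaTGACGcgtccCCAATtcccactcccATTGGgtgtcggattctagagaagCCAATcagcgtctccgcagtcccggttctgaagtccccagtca
HLA-E, chromosome 6: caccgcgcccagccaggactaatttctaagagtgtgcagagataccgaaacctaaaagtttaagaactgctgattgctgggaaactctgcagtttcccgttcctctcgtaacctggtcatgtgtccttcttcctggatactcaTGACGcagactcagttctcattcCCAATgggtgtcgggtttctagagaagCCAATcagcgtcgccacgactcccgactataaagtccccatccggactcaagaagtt
HLA-F, chromosome 6: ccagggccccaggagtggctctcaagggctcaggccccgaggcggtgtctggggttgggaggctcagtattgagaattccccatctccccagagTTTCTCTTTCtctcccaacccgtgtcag
B2M, chromosome 15: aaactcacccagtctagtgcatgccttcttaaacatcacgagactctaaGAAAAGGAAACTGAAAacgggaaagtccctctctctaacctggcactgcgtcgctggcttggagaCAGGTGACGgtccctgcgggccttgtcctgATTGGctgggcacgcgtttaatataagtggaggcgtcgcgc
TAP1, chromosome 6: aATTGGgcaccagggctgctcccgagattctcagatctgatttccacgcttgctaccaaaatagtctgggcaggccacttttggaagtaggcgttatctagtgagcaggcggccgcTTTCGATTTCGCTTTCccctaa

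The motifs are given as a description of the reference sequence. The ISRE core was in the window of 6 of the 9 genes (HLA-F, B2M, TAP1, TAP2, TAPBP and NLRC5) and of 3.29% of all 19970 protein-coding promoters of the same length. Only exact matches were searched, so a gene without one, such as HLA-B, HLA-C or HLA-E, can still hold an ISRE of other letters. In B2M, TAP1 and TAPBP it was present as a pair of overlapping matches, and in NLRC5 the match crossed the start itself. The NF-kB site was in the window of HLA-B and in 1.16% of all promoters. The CCAAT box was in 6 members and 36% of all promoters, and the CRE-like core was in 5 members and 29.2% of all promoters. The ZEB1 E-box was in B2M alone among the members, where it overlapped the CRE-like core by 2 bases, and in 20.5% of all promoters. The HLA-B stretches of chromosome 6 and the MCF contig differed by 8 edits and those of HLA-C by 10. The MCF stretch of HLA-B holds an ATTGG that its chromosome 6 stretch lacks, and the chromosome 6 stretch of HLA-C holds an ATTGG that its MCF stretch lacks, while the other capitals of each pair are on both sequences. The RefSeq promoter table held the same window for 7 of the 9 genes, all but HLA-E and NLRC5.

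The No gRNA list held 67868 peaks on the main chromosomes and the All gRNA list 68238. The height of a peak was its summit pileup, the number of extended reads stacked at the summit, solved from the deposited fold and −log10 p. The depth of the All gRNA library was 0.743 times that of the No gRNA library, and height ratios (All gRNA over No gRNA) were divided by this number. Their 95% intervals, given in parentheses, are exact binomial and cover counting error only. They treat stacked reads as independent, which reads of the same fragment are not, so they can be too narrow. Over all 48041 shared peaks with 1 partner in each list, the median log2 height ratio was −0.11 and 60.7% of the peaks were narrower in the All gRNA library. Start peaks lay at VIM, CD44, CAV1 and AXL in both libraries, which are markers of mesenchymal cells. None lay at the luminal or epithelial markers EPCAM, CDH1 or ESR1, while KRT18 had one in both. No start peak was called at any of 5 leukocyte markers (PTPRC, CD3E, CD14, ITGAM and HLA-DRA).

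On the main chromosomes, open chromatin at the 9 genes was at B2M and NLRC5, and at few of the genes in the MHC itself. The member windows held 13 No gRNA peaks that covered 5025 bp and 11 All gRNA peaks that covered 3989 bp. Of these, 4 No gRNA peaks had no overlap in the other list (24.7% of all No gRNA peaks had none) and 2 All gRNA peaks had none (23.8% of all All gRNA peaks). Within 1000 bp of the main start, B2M and NLRC5 had a peak in both libraries, whereas 60.3% of all protein-coding genes did. HLA-E had a start peak in the No gRNA library only and TAP1 in the All gRNA library only. HLA-B, HLA-C, HLA-F, TAP2 and TAPBP had no start peak in either library on chromosome 6.

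The 9 shared peaks of the windows had a median log2 height ratio of −0.40, beside −0.11 over all shared peaks. Of these 9 peaks, 2 were at least 1.5-fold higher in the All gRNA library (12.2% of all shared peaks were) and 3 at least 1.5-fold lower (16.5% of all shared peaks were). The 3 lower peaks were at the starts of B2M and NLRC5 and upstream of NLRC5, and the 2 higher peaks were in the distal part of NLRC5. With all ratios divided by the median ratio of the shared peaks in place of the depth, 1 peak was at least 1.5-fold lower, the one upstream of NLRC5. In the All gRNA library 7 of the 9 peaks were narrower, with a median width difference of −63 bp beside −23 bp over all shared peaks.

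**Figure D1:**
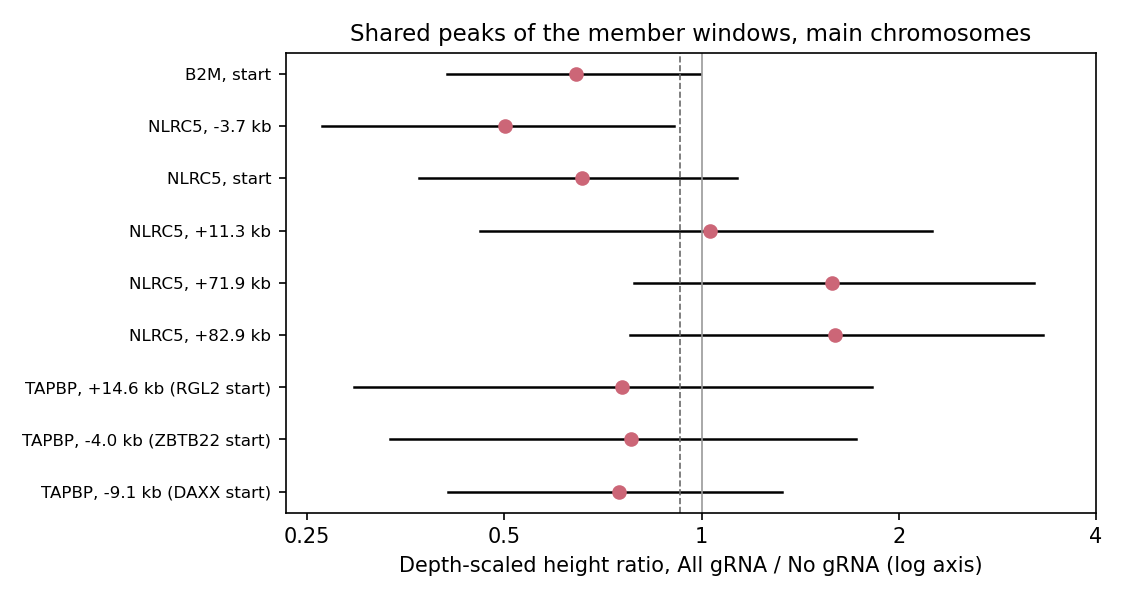
Depth-scaled height ratio (All gRNA over No gRNA, log axis) of the 9 shared peaks in the windows of the class I genes on the main chromosomes, labelled by the gene and the distance of the summit from its main start. Points are ratios, bars are 95% exact binomial intervals that cover counting error only, the solid line is 1 and the dashed line is the median of all shared peaks. The intervals of the B2M start peak and of the peak 3.7 kb before NLRC5 lie below 1, and the 2 peaks in the distal part of NLRC5 have ratios above 1.5 with intervals that include 1.

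B2M, which encodes the light chain shared by all class I molecules, had the highest of these peaks. In the No gRNA library the peak lay at chr15:44711294-44711789, was 496 bp wide and reached a pileup of 67 (fold 21.0, −log10 q 70.1). In the All gRNA library it lay at chr15:44711226-44711716, was 491 bp wide and reached a pileup of 32 (fold 15.9, −log10 q 33.0). Both summits were within 28 bp of the main start, and both peaks covered the ISRE, E-box and CCAAT matches printed above. The height ratio was 0.643 (0.408 to 0.993). With the ratios divided by the median of all shared peaks it was 0.693 (0.440 to 1.07), an interval that includes 1. The chromosome 15 peak was thus lower in the All gRNA library by an amount close to its counting error.

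The reference used for mapping also held an alternate contig of chromosome 15 that carries B2M, and both libraries had a start peak there. On the contig the pileup was 53 for No gRNA and 45 for All gRNA, a ratio of 1.14 (0.751 to 1.73). Over a stretch of 1000 bp centred on the start the contig differed from the chromosome by 1 edit, so most reads of this start cannot be placed on one or the other by their sequence. Summed over both places the pileups were 120 and 77, a ratio of 0.863 (0.640 to 1.16). The direction at the chromosome was therefore not that of the contig, and the sum of both places had an interval that includes 1.

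NLRC5, the transactivator of the class I genes, had peaks at its start, before it and along its gene body, and no alternate contig holds it. At the main start the No gRNA peak lay at chr16:56989406-56989952 (547 bp, pileup 43) and the All gRNA peak at chr16:56989456-56989954 (499 bp, pileup 21), a ratio of 0.657 (0.370 to 1.13). A peak 3.7 kb before the start lay at chr16:56985675-56985974 in the No gRNA library (300 bp, pileup 43) and at chr16:56985720-56985938 in the All gRNA library (219 bp, pileup 16). Its ratio was 0.501 (0.263 to 0.907), the lowest of the 9 shared peaks. These peaks at and before the start were the 2 highest of the gene in the No gRNA library.

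Further into NLRC5 the heights did not follow those of the start. In an intron 11.3 kb after the start the pileups were 17 and 13, a ratio of 1.03 (0.460 to 2.25). At 71.9 kb, over an exon, the pileup was 17 for No gRNA and 20 for All gRNA, a ratio of 1.58 (0.788 to 3.22), while the width was 708 bp for No gRNA and 399 bp for All gRNA. At 82.9 kb, in an intron, the pileups were 16 and 19, a ratio of 1.60 (0.778 to 3.32). A No gRNA peak at chr16:57084435-57084667, just past the end of the gene, had a pileup of 10 and no overlap in the All gRNA list. Of the 5 shared peaks of NLRC5, only the interval of the peak before the start lay off 1, and with scaling by peaks of like height it was 0.567 (0.298 to 1.03), an interval that includes 1. The ratios were below 1 at and before the start, near 1 at 11.3 kb, and above 1 at 71.9 and 82.9 kb with intervals that include 1. This difference along the gene has no replicate check.

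**Figure D2:**
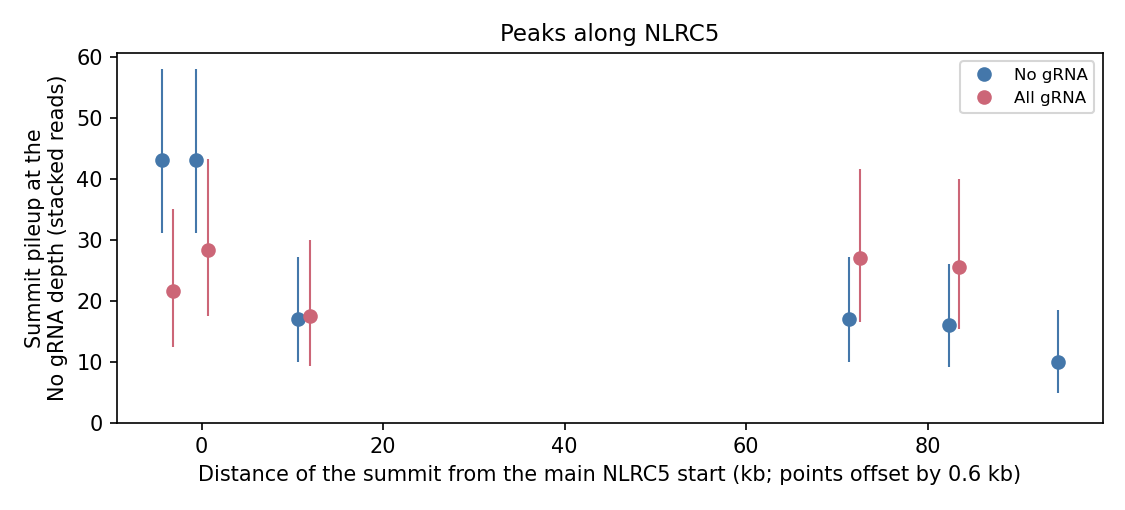
Summit pileup at the No gRNA depth (stacked reads, All gRNA values divided by 0.743) against the distance of the summit from the main start of NLRC5 in kb, with 95% exact Poisson bars. The 2 libraries are offset by 0.6 kb on either side for legibility. No gRNA points are the higher at and before the start, All gRNA points are the higher at 71.9 and 82.9 kb with overlapping bars, and the last point is a No gRNA peak with no All gRNA partner.

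TAPBP, the gene of tapasin, had 3 shared peaks in its window, but none at its own start. They lay at the starts of its neighbours RGL2 (pileups 16 and 9), ZBTB22 (19 and 11) and DAXX (36 and 20), with ratios of 0.757 (0.295 to 1.82), 0.779 (0.335 to 1.72) and 0.748 (0.410 to 1.33) on chromosome 6. A No gRNA peak with a pileup of 8 and no overlap in the other list lay at chr6:33299824-33300023, over an exon at the 3′ end of TAPBP. The start of TAPBP had no peak in either library on chromosome 6 or on any of the 4 alternate contigs to which it could be placed. The 3 neighbours themselves had start peaks in both libraries on all of these contigs. Summed over chromosome 6 and the contigs, ZBTB22 had pileups of 136 and 65, a ratio of 0.643 (0.471 to 0.871), RGL2 had 76 and 45, a ratio of 0.797 (0.538 to 1.17), and DAXX had 125 and 92, a ratio of 0.990 (0.748 to 1.31).

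The other peaks on chromosome 6 were low and present in 1 library each. The HLA-E start peak of the No gRNA library lay at chr6:30489342-30489635 (294 bp, fold 9.08, −log10 q 12.6) with a pileup of 14, and its summit was 52 bp before the start, beside the second of the CCAAT boxes printed above. An All gRNA peak with a pileup of 7 lay 7.3 kb after the HLA-E start, at chr6:30496782-30496991. On alternate contigs, given below, this site was called in the No gRNA library instead. The TAP1 start peak of the All gRNA library lay at chr6:32853729-32853943 (215 bp, fold 7.41, −log10 q 8.72) with a pileup of 10. TAP1 starts close to PSMB9, a subunit of the immunoproteasome that is read in the opposite direction, so the same peak counts for both genes. A No gRNA peak with a pileup of 12 at chr6:32844681-32844930, between TAP1 and TAP2, lay at the starts of PSMB8 and of a PSMB9 transcript.

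For the members in the MHC, peaks were far more numerous outside chromosome 6 than on it. The mapping reference held 7 alternate contigs of the MHC, each a different haplotype of the same region (APD, COX, DBB, MANN, MCF, QBL and SSTO), and these carried 490 No gRNA peaks and 380 All gRNA peaks. The starts of the class I genes were therefore placed on each contig by alignment, an addition made after the data had been seen, and peaks within 1000 bp of each were read in the same way. With the contigs, 8 of the 9 genes had a start peak in both libraries, all but TAPBP. Among the 183 protein-coding genes of the MHC region that could be placed on a contig, 23% had a start peak in both libraries on chromosome 6 alone and 41% with the contigs. Of the 7 members on chromosome 6, which exclude B2M and NLRC5, 0 had one on chromosome 6 alone and 6 with the contigs. The member windows on the MHC contigs held 53 No gRNA peaks, of which 20 had no overlap (40.2% of all No gRNA peaks on these contigs had none), and 44 All gRNA peaks, of which 9 had no overlap (22.6% of all All gRNA peaks on them). Start heights were then summed over the places of each gene. A place with no called peak adds 0 to such a sum although its reads are only below the caller's threshold, so an interval is given for a sum only where every place with a peak had one in both libraries. Beside a sum stands its ratio over places with overlapping peaks, which leaves out by construction any place that fell below the threshold in 1 library. Also given is its ratio with uncalled places filled. The fill was the lowest pileup called at the lowest background in the whole peak list of the library (5 for No gRNA, 4 for All gRNA).

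**Figure D3:**
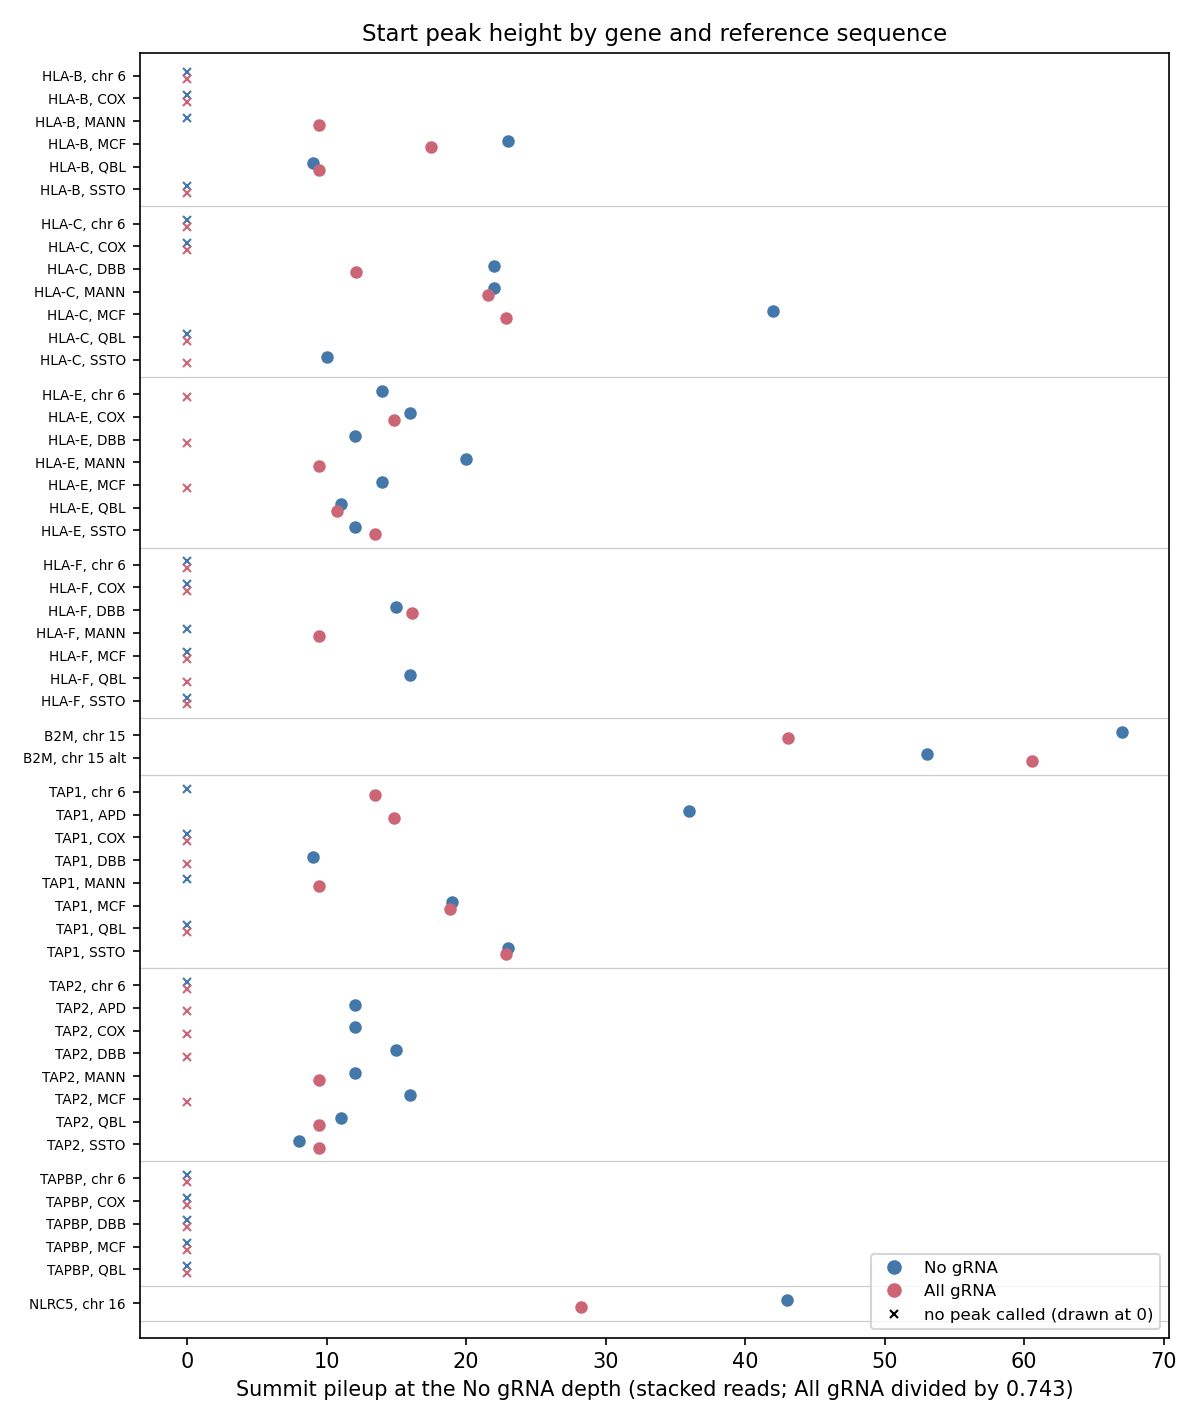
Summit pileup of the start peak (stacked reads at the No gRNA depth, All gRNA values divided by 0.743) for each class I gene on its chromosome and on each alternate contig where its start could be placed. Circles are called peaks, crosses drawn at 0 mark places with no called peak, blue is No gRNA and red is All gRNA. The peaks of HLA-B, HLA-C, HLA-F and TAP2 lie on contigs only, HLA-E has a No gRNA peak at all 7 places, and TAPBP has no peak at any place.

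The heavy chain genes HLA-B and HLA-C, whose starts differ most between haplotypes, had their highest peaks on the MCF contig. The 1000 bp around the HLA-B start differed from chromosome 6 by 14 to 59 edits on the contigs, and that of HLA-C by 3 to 41. At HLA-B the MCF pileups were 23 and 13, a ratio of 0.761 (0.354 to 1.57). On the QBL contig the HLA-B pileups were 9 and 7, and on the MANN contig a peak with a pileup of 7 was called in the All gRNA library only. Over all of its places HLA-B summed to 32 and 27, a ratio of 1.14, which was 0.841 over the places where peaks of both libraries overlapped and 1.01 with uncalled places filled. The direction at the HLA-B start thus turned with the places counted. Other peaks in the HLA-B windows are in none of these sums. On the QBL contig a pair well before the main start was higher in the All gRNA library, with pileups of 9 (No gRNA, −log10 q 6.37) and 17 (All gRNA, −log10 q 18.8). Its height ratio is not given here. After the start on the MCF contig, a pair had pileups of 13 and 7, and a No gRNA peak of 8 had no overlap.

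At HLA-C the No gRNA library was the higher in sum. The pileups were 42 and 17 on the MCF contig, a ratio of 0.545 (0.291 to 0.978), and the summits there lay at −174 and −175 bp from the start, inside the stretch printed above. They were 22 and 9 on the DBB contig (0.551, 0.223 to 1.24) and 22 and 16 on the MANN contig (0.979, 0.480 to 1.95), and on the SSTO contig a peak with a pileup of 10 was called in the No gRNA library only. The sums were 96 and 42, a ratio of 0.589, which was 0.657 over places with overlapping peaks and, no longer 1.5-fold lower, 0.703 with uncalled places filled. The ratio was below 1 on every contig with both peaks, and its interval lay below 1 on 1 of these 3 contigs.

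HLA-E and HLA-F, the heavy chains with few variants, had starts that were nearly the same on every haplotype. The 7 HLA-E starts made up 2 distinct sequences that differ by 1 edit, so the reads of this gene cannot be assigned to a haplotype there. In the No gRNA library HLA-E had a start peak at all 7 places, with pileups between 11 and 20. In the All gRNA library it had one at 4 places (COX 11, MANN 7, QBL 8 and SSTO 10), and the MANN peak did not overlap that of the other library. The sums were 99 and 36, a ratio of 0.489. The ratio was 1.00 over the 3 places with overlapping peaks and 0.652 with uncalled places filled. At the 3 places called in the No gRNA library alone its pileups were 14, 12 and 14, and at MANN they were 20 and 7. The site 7.3 kb after the start was called on chromosome 6 in the All gRNA library alone. On the contigs it was called in the No gRNA library alone, with pileups of 11 (DBB), 9 (MANN) and 7 (MCF).

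HLA-F had start peaks at few places. On the DBB contig the pileups were 15 and 12, a ratio of 1.08 (0.460 to 2.46). On the QBL contig a peak of 16 was called in the No gRNA library only, and on the MANN contig a peak of 7 in the All gRNA library only. The sums of 31 and 19 gave a ratio of 0.825, which was 0.937 with uncalled places filled.

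The start sums of the transporter genes differed from each other, and those of TAP1 are also those of PSMB9. The 8 TAP1 starts made up 4 distinct sequences that differ by at most 3 edits, so most reads there cannot be assigned to a haplotype. TAP1 had its highest No gRNA peak on the APD contig, with a pileup of 36 against 11 in the All gRNA library, a ratio of 0.411 (0.189 to 0.826). The summits of these APD peaks lay apart, at −521 bp (No gRNA) and −163 bp (All gRNA) from the main start, so this ratio does not compare 1 position. On the other contigs the No gRNA summits lay at −467 bp (DBB), −455 bp (MCF) and −509 bp (SSTO). These summits are near the main start of PSMB9 (chr6:32854192, beside chr6:32853704 for TAP1). The contig heights are thus not those of the TAP1 start alone. On the MCF contig the pileups were 19 and 14 (0.992, 0.460 to 2.09) and on the SSTO contig 23 and 17 (0.995, 0.499 to 1.95). Peaks in 1 library only were called on the DBB contig (No gRNA, 9), on the MANN contig (All gRNA, 7) and on chromosome 6 (All gRNA, 10). The TAP1 sums were 87 and 59, a ratio of 0.913 (0.725 over places with overlapping peaks and 0.893 with uncalled places filled), and the single place whose interval lay off 1 was the APD contig.

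TAP2 had a No gRNA start peak on all 7 contigs, with pileups between 8 and 16. The All gRNA library had one on the MANN, QBL and SSTO contigs, each with a pileup of 7, and the one on MANN did not overlap its counterpart. The sums were 86 and 21, a ratio of 0.329. It was 0.992 over the 2 places with overlapping peaks, where the pileups were 11 and 7 (QBL) and 8 and 7 (SSTO), and 0.606 with uncalled places filled. At the 4 contigs called in the No gRNA library alone its pileups were 12, 12, 15 and 16.

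**Figure D4:**
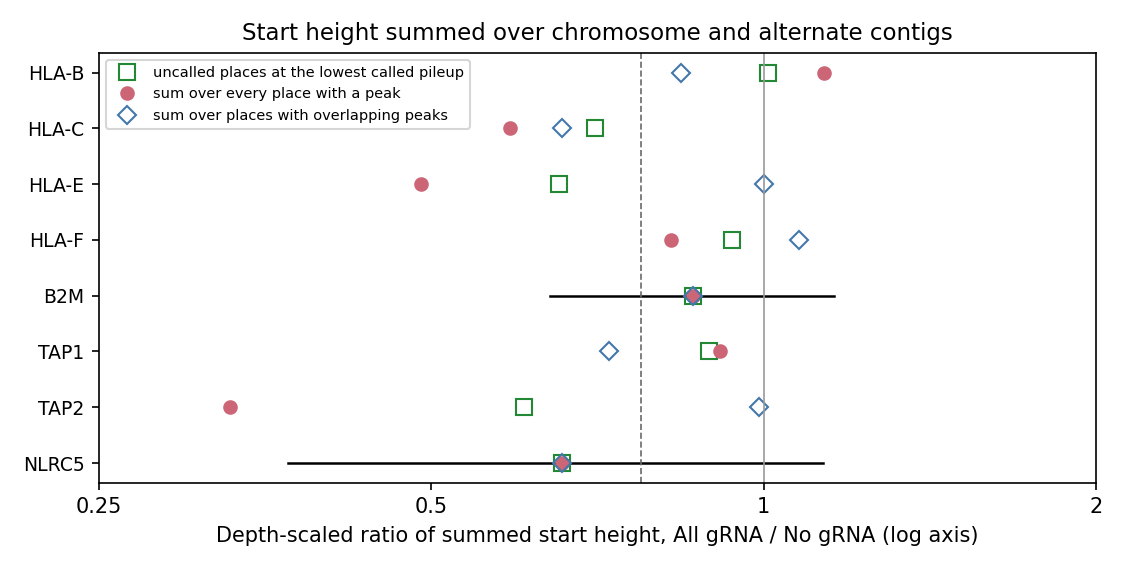
Depth-scaled ratio (All gRNA over No gRNA, log axis) of the start height of each class I gene summed over its chromosome and the alternate contigs. Red circles sum every place with a peak, blue diamonds the places where peaks of both libraries overlap, and green squares all places with uncalled ones set at the lowest called pileup. Bars are 95% exact binomial intervals for counting error only and are drawn for B2M and NLRC5, whose places all had overlapping peaks, the solid line is 1 and the dashed line is the median of the MHC region genes. HLA-E and TAP2 move from 0.489 and 0.329 (circles) to 0.652 and 0.606 (squares) and to 1.00 and 0.992 (diamonds), and HLA-B moves from above 1 to below 1.

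These sums were read beside the whole MHC region. Of the 75 MHC region genes with a start peak in both libraries, 33.3% had a sum at least 1.5-fold lower in the All gRNA library, 69 had a sum lower by any amount, 1 was at least 1.5-fold higher, and the median log2 ratio was −0.37. Of the 6 class I genes on chromosome 6 with such a ratio, 3 (HLA-C, HLA-E and TAP2) were at least 1.5-fold lower, 5 were lower by any amount, and the median log2 ratio was −0.52. A sum over called peaks falls with depth, since a low peak is lost sooner in a shallower library, and the All gRNA library was the shallower. At the 14 contig starts of class I genes where peaks of both libraries overlapped, the median log2 ratio was −0.03. There 3 ratios were at least 1.5-fold lower and none was at least 1.5-fold higher. Of all shared peaks on the main chromosomes, 16.5% were lower and 12.2% higher by this much. At these 14 starts 2 intervals lay below 1 (HLA-C on MCF, and TAP1 on APD, where the summits lay apart). These places are those where both libraries passed the caller's threshold, so a place that fell below it is not among them. Peaks away from the starts are not among them either, such as the QBL pair before HLA-B (pileups 9 and 17). Over all 274 shared contig peaks the median was −0.16, and the share of them past 1.5-fold was not counted. The part of depth in the sums was not tested.

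Of 11 genes that supply and load the peptides, 8 had a start peak in both libraries on the main chromosomes, where 60.3% of all protein-coding genes did. The highest were PSME2 (pileups 246 and 139) and PSME1 (169 and 102), the proteasome activator subunits, and CANX (184 and 169), the chaperone calnexin, which had a ratio of 1.24 (0.997 to 1.53). PSMB8, an immunoproteasome subunit, had a start peak in the No gRNA library only, PSMB9 in the All gRNA library only, and ERAP2, an aminopeptidase that trims peptides, had none in either. None of the 6 genes with 1 partner was past 1.5-fold (12.2% of all shared peaks were higher and 16.5% lower by this much), and their median log2 ratio was −0.30. ERAP1, the other trimming aminopeptidase, whose peaks were not 1 to 1 between the lists and which is named after its values were seen, had pileups of 103 and 44, a ratio of 0.575 (0.394 to 0.826). On the contigs PSMB8 summed to 72 and 22, a ratio of 0.411, which was 0.897 over places with overlapping peaks and 0.689 with uncalled places filled.

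The regulators of class I genes all had open starts. Of 18 regulators, 18 had a start peak in both libraries (60.3% of all protein-coding genes did). None of the 15 with 1 partner was at least 1.5-fold higher in the All gRNA library (12.2% of all shared peaks were) and 2 were at least 1.5-fold lower, a share near the 16.5% of all shared peaks. IRF1, the interferon-induced factor that binds the ISRE, had pileups of 178 and 74, a ratio of 0.559 (0.421 to 0.738). IRF2, a related factor that binds the same element, had pileups of 105 and 52, a ratio of 0.666 (0.469 to 0.938). The highest peaks of the list by −log10 q were those of CREB1 (270 and 148), NFYA (329 and 227) and IRF1, and the median log2 ratio of the 15 was −0.30. With the ratios divided by the median of all shared peaks, IRF1 stood at 0.603 (0.453 to 0.795) and IRF2 at 0.718 (0.505 to 1.01).

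Genes of the MHC class II pathway served as a contrast, since they are used mainly by professional antigen presenting cells. Of the 12 listed, 10 lie in the MHC as neighbours of TAP1 and TAP2, while CIITA and CD74 lie on other chromosomes. None of 12 class II genes, among them the transactivator CIITA, CD74 and HLA-DRA, had a start peak in either library on the main chromosomes, as was so for 35.6% of all protein-coding genes and 5 of the 9 class I genes. None of the 10 of them that lie in the MHC had one on a contig. Of 7 other class I-like genes, MR1 and HFE had a start peak in both libraries, MICA in the No gRNA library only, and HLA-G, MICB, CD1D and FCGRT in neither. With the contigs MICA, a stress ligand of natural killer cells, had a No gRNA peak at 5 places and an All gRNA peak at 3, with sums of 80 and 29 and a ratio of 0.488, which was 0.750 over places with overlapping peaks and 0.622 with uncalled places filled. MICB had a single peak, with a pileup of 12, in the No gRNA library.

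**Figure D5:**
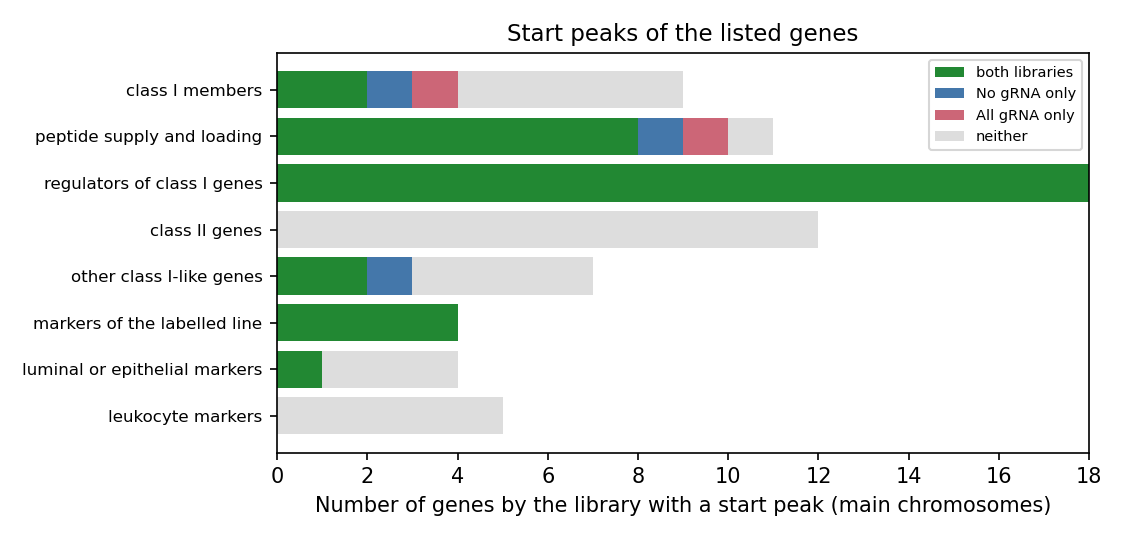
Number of genes of each list with a start peak (within 1000 bp of the main start) in both libraries, in 1 library or in neither, on the main chromosomes without the contigs. All 18 regulators have a peak in both libraries, 8 of 11 supply and loading genes do, 2 of the 9 class I genes do, and none of the 12 class II genes has one.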

How the data were processed

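ATAC-seq peaks of 2 SUM159 libraries were analysed (No gRNA and All gRNA, 1 library each). Per the study's methods, the authors used fastp for trimming and Bowtie2 for mapping to hg38, took out duplicates (SAMtools) and reads of mitochondria and excluded regions, and called peaks per library with MACS2 without a control. How reads with several equally good positions were placed is not given in the sources used here. The deposited lists give each peak's fold over local background (a ratio), a −log10 p, a −log10 q, a summit and a score (not used).

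Summit pileup and background were solved from the deposited fold and −log10 p. The procedure recovered 100% of the pileups of 20000 simulated peaks and whole pileups for 100% of the peaks of each list (−log10 p met within a relative deviation of 0.001). Depth was the ratio of the lowest backgrounds (0.651816 and 0.484375). Library totals are unknown. Genes came from GENCODE release 44 and the main start was that of the canonical transcript. Shared peaks overlapped by at least 1 bp. Alternate contigs were aligned to the member loci with minimap2 2.31-r1302, and start sequences were compared with edlib. Intervals were exact (Poisson for a pileup, binomial for a ratio, scipy 1.17.1). Figures used matplotlib 3.10.9.

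The genes and lists were chosen with earlier results of these data known. All 9 members are named, and 1 leukocyte marker fixed for the check, beside the 5 given, is not reported here. Other listed genes are named where the start peak was called in 1 library or neither, had 1 partner and was past 1.5-fold with an interval off 1, or was among the 3 highest of its list by −log10 q. The neighbours of TAPBP and the analyses of contigs were added after the data had been seen.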

Additional observations from a re-analysis of the deposited data

How the results depend on the processing

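Of 34 values of counts, medians and start ratios under an alternative, 22 stayed within a set range of the reported value. The other 12 did not, most of them counts of 4 or fewer. The range was 1.5 times for a count and the counting interval for a start ratio. For the median it was the span of the 9 shared peak ratios without the lowest and the highest, a wide range. No gRNA peaks without overlap in the member windows numbered 2 in place of 4 at a −log10 q of at least 10 and 1 within 1 kb of a start without gene bodies. All gRNA peaks without overlap numbered 1 in place of 2 at a −log10 q of at least 5, within 4 kb plus gene bodies, and within 1 kb, and 0 at a −log10 q of at least 10. Members with a start peak in both libraries numbered 4 within 4000 bp of any start and 8 with the alternate contigs, in place of 2. With a fold of 2, no shared member peak was higher (0 in place of 2) or lower (0 in place of 3), and with median scaling 1 was lower. Members at least 1.5-fold lower in summed start height numbered 2 in place of 4 over places with overlapping peaks, HLA-C and NLRC5. There HLA-E stood at 1.00 in place of 0.489, on the other side of 1, and TAP2 at 0.992 in place of 0.329. The median log2 ratio of shared member peaks ranged from −0.41 to −0.29 over the scalings, the deposited fold and the subtraction of background. No paired analysis was possible because there was 1 library per group. Pileups of 20 or fewer at most starts of the MHC limit what can be seen: an uncalled place is one below the threshold of the caller and not one without accessibility, and the haplotypes that SUM159 carries were not analysed here.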
